A study of Mus musculus with 18 samples.

Results

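Replication-dependent histone genes were followed in RNA-seq counts of mouse embryonic fibroblasts (MEFs) and liver. Members were chosen by symbol, as genes of the Hist1h, Hist2h, Hist3h and Hist4h families or of the current H2ac, H2bc, H3c and H4c series and H1f1 to H1f5, and both tables were joined by Ensembl gene ID. This gave 72 of the 52091 genes listed in either table. They comprise 6 H1, 20 H2A, 21 H2B, 12 H3 and 13 H4 genes. By chromosome, 58 were assigned to Hist1 (chromosome 13), 10 to Hist2 (chromosome 3), 3 to Hist3 (chromosome 11) and 1, *H4f16* (*Hist4h4*), to Hist4 (chromosome 6). *Hist1h2al*, at chr13:51202727 (GRCm38), was counted with Hist1 but lies far from the other chromosome 13 members, outside that cluster. Of the 72 members, 68 are listed for MEFs, 70 for liver and 66 for both. *H2bu1-ps* is a pseudogene by its name, and the GENCODE M21 annotation also lists *Hist1h2aj* and *Hist1h2al* as pseudogenes.

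The study asked what happens when repeat B of *Xist* is deleted. *Xist* is the long noncoding RNA that coats one X chromosome of female cells, and repeat B is the stretch of it needed to recruit Polycomb complexes. RepB-/- animals carry a homozygous CRISPR deletion of repeat B in ICR mice, and WT animals are the controls. Each genotype has 3 MEF and 3 liver libraries. The letter B in the titles was read as RepB-/- and W as WT. The MEFs are labelled as primary cells and also carry the tissue name tail, they grew in DMEM with fetal bovine serum, and no age is given for the livers. RNA is labelled as polyA RNA for every library, and brain libraries were not analysed here. Nothing in the labels says that the libraries of a genotype came from separate animals or cultures, so p-values measure only the spread between these libraries, which may be technical.

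Replication-dependent histone genes supply the H1 linker histone and the 4 core histones H2A, H2B, H3 and H4 during S phase, when new DNA has to be packaged. They occur in clusters of many near-identical copies, mostly without introns. Their main mRNAs are the only known animal mRNAs that end in a short conserved stem-loop in place of a poly(A) tail. The stem-loop binding protein SLBP and the U7 small nuclear ribonucleoprotein direct the cut just behind the stem-loop, and the coactivator NPAT drives their transcription at histone locus bodies. Some of these genes also make longer, polyadenylated mRNAs, often in cells that have left the cycle. Selection for poly(A) therefore retains only some of the histone mRNA, and the counts below are those of polyA libraries.

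The MEF libraries held between 11540344 and 20587556 counts and the liver libraries between 37682201 and 51542709. How the liver counts were made is not given in the sources used here, and whether they are direct read counts or were computed back from coverage was not settled, so liver p-values rest on treating them as read counts. Counts were scaled to counts-per-million (CPM) with TMM-adjusted library totals unless another scale is named. *Xist* is not among the MEF genes analysed here, and the deletion was therefore not checked in these cells. In liver, *Xist* had 14704, 4 and 22681 counts in RepB-/- and 14494, 21594 and 26345 in WT. RepB-/- liver replicate 2 also held 1527, 1669, 708 and 438 counts of the Y-linked *Ddx3y*, *Eif2s3y*, *Kdm5d* and *Uty*. The other liver libraries had 0 of each, except 1 count of *Kdm5d* in RepB-/- replicate 3. By these counts RepB-/- replicate 2 reads as male, and a male would carry the deletion on its only X chromosome. It was kept in the RepB-/- group, so the liver comparison is not of females alone. In MEFs the same Y-linked genes had 0 counts in every RepB-/- library and at most 3 in any WT library. Replicate 1 of both genotypes stood apart in liver, with 5871 (RepB-/-) and 4674 (WT) summed CPM of the fetal liver markers *Afp*, *H19*, *Igf2* and *Dlk1*, against between 4.10 and 19.98 in the other 4 libraries. In MEFs all 8 fibroblast markers passed the low-count filter, and the 6 hepatocyte markers summed to at most 1.36 CPM.

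The stem-loop was looked up in GENCODE M21 transcripts (GRCm38) as the 16-base string GGNNCTTTNNAGNNCC on the transcript strand. It was found in 44 of the 70 members with a transcript there, in 6 forms, of which the commonest occurred in 26 members. Transcripts without it include short ones, such as those of *H4c12* (312 bases), *H2bc13* (381) and *H3c10* (411). These may stop before the stem-loop, so a missing string does not show that a gene lacks it. Among all 55450 genes, 0.0469% hold the string in the last 100 bases of a transcript, and 22 of those 26 genes are members. The sites of members that the results below turn on are shown 5′ to 3′ with the string in capitals, so that the part common to a gene that fell and a gene that did not can be seen.

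H3c1: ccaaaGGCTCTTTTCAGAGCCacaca
H3c6: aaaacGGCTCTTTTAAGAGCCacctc
H2ac6: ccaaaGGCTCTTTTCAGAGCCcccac
H4c3: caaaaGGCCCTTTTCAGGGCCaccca
H4c9: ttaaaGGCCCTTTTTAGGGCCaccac
H1f2: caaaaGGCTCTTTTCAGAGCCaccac
H2bc12: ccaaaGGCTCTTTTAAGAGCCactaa

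*H1f2* and *H3c1* carry the same 16 bases. In the annotation the *H3c1* transcript ends 37 bases after the string, whereas that of *H1f2* runs on for 840 bases. Those of *H2ac6*, *H4c3* and *H3c6*, which also fell in MEFs, run on for 2010, 454 and 369 bases. That of *H4c9*, which did not pass, runs on for 330. No string was found in the transcript of *H2bc4*, which has 2 exons. In 25 members a transcript ran on for at least 50 bases after the string, and in 19 it did not.

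Across the MEF libraries, most replication-dependent histone genes with appreciable counts were lower in RepB-/- than in WT, by between 1.76-fold (*H1f4*) and 27-fold (*H3c1*, from 5 summed counts in RepB-/-) among those called, *H4f16* aside, and no member passed as higher. *H1f2*, encoding a linker histone, and *H2bc4*, encoding an H2B, had the highest levels per length, 132 and 81.7 CPM per kilobase on average. They made up 75.3% of all member counts and did not pass the test. In bulk samples fewer cells of a type and less RNA per cell cannot be told apart. Of the 33 members that passed the low-count filter, 22 fell in the edgeR quasi-likelihood test at an adjusted p under 0.05 and 0 rose. Over all 13306 genes tested, 19.7% were called lower and 19.4% higher. At an unadjusted p under 0.05, 23 members were lower and 0 higher, beside 24.1% and 23.6% of all genes, and DESeq2 called 26 of 49 lower and 0 higher, beside 16.8% of its genes lower. The fallen members were 3 of 5 tested H1 genes, 2 of 3 H2A, 4 of 7 H2B, 7 of 9 H3 and 6 of 9 H4 genes. Without the filter, 3 of 6 H1, 2 of 12 H2A, 9 of 18 H2B, 7 of 10 H3 and 7 of 12 H4 genes were called lower. The share of all genes was then 16.1%, and the H2A genes were near it.

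**Figure D1:**
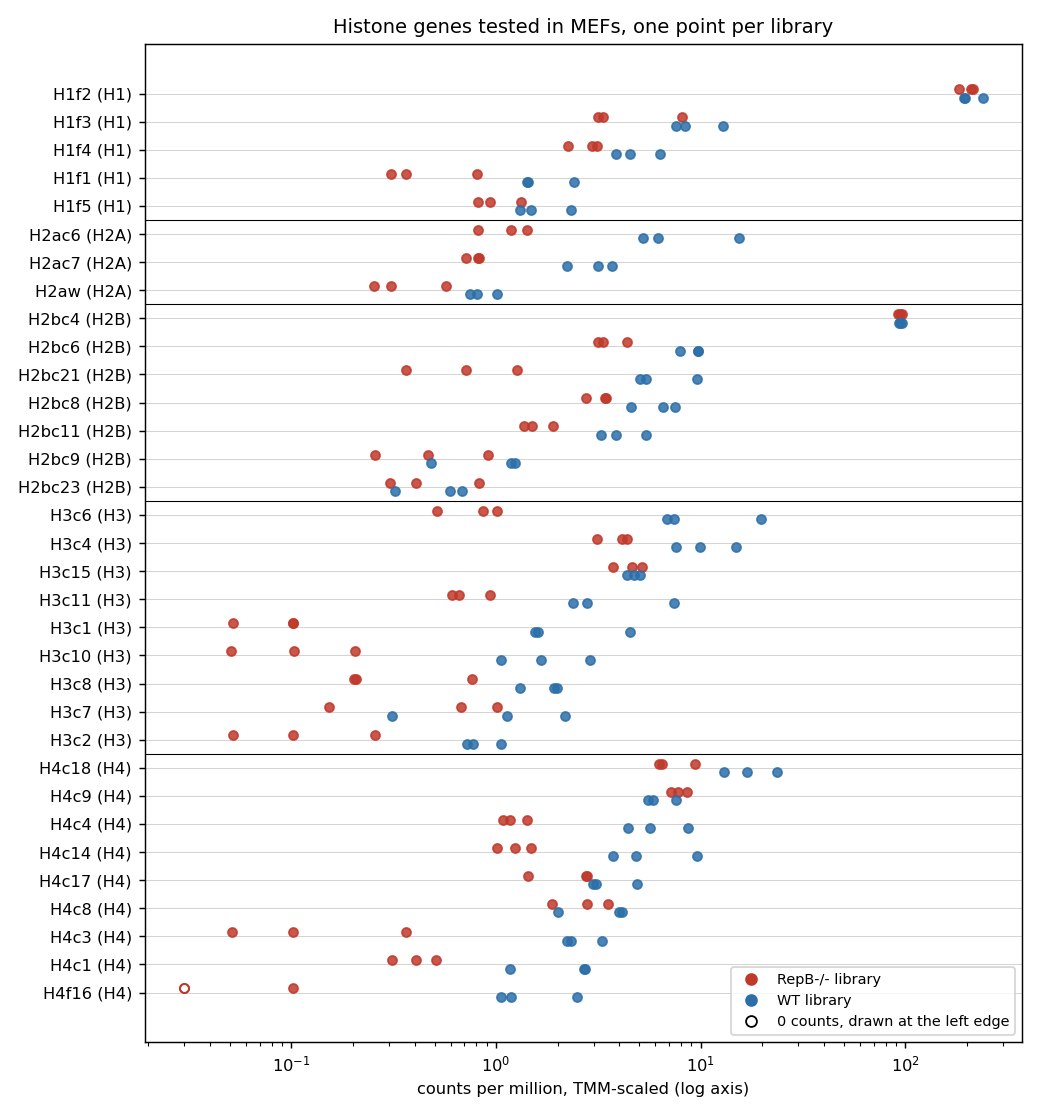
Level of each of the 33 histone genes tested in MEFs, in TMM-scaled CPM on a log axis, with 1 point per library and genes grouped by histone type. WT points (blue) lie to the right of RepB-/- points (red) for most genes, whereas the points of *H1f2* and *H2bc4*, the most abundant, overlap.

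The filter itself favoured genes that were high in WT, since 14 of the 33 tested members did not reach it (0.55 CPM) in all RepB-/- libraries. Among the 19 members that did, 12 fell and 0 rose. Without a filter, 28 of the 58 members with a count in any library were called lower and 0 higher, beside 16.1% of 19330 genes called lower. A filter on the mean over all 6 libraries, chosen after the data had been seen, gave 24 lower of 35, beside 19.6%. Among the 68 listed members 55 had a lower mean in RepB-/-, 3 a higher one and 10 no count in any library. In 30 members every RepB-/- library lay below every WT library and in 0 above, compared with 24.8% and 18.5% of all genes with a count. The median log2 fold change of the tested members was -1.38, and that of all genes tested was 0.0003.

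H3 is a core histone that, with H4, is laid down first on new DNA, and 7 of its 9 tested genes fell. *H3c6* had 17, 10 and 20 counts in the RepB-/- libraries and 245, 111 and 125 in WT. Every RepB-/- library lay far below every WT library, although the deepest WT library held fewer reads than any RepB-/- library. Its log2 fold change was -3.79 ± 0.43 (SE), a 13.8-fold difference (edgeR, adjusted p = 2.65e-05). *H3c1* had 2, 1 and 2 counts against 56, 26 and 26, a log2 fold change of -4.76 ± 0.65 (SE, edgeR, adjusted p = 0.000102). *H3c10* had 4, 2 and 1 counts against 36, 17 and 28, and its log2 fold change was -3.86. For both genes the libraries of the genotypes were separated, with single-digit counts in all RepB-/- libraries. *H3c2*, *H3c11* and *H3c8* fell by 2.59, 2.47 and 2.12 on the log2 scale. *H3c4* had 61, 84 and 81 counts against 185, 123 and 167 and a log2 fold change of -1.47. *H3c15* did not pass, with 3.72, 5.17 and 4.61 CPM in RepB-/- and 5.05, 4.70 and 4.34 CPM in WT, and neither did *H3c7*, whose counts varied between 5 and 27 within WT alone.

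Among H4 genes, *H4c18* (*Hist1h4n*) had the highest level per length, 29.8 CPM per kilobase on average. It had 127, 121 and 185 counts in RepB-/- and 293, 271 and 219 in WT, with a log2 fold change of -1.26 ± 0.21 (SE, edgeR, adjusted p = 0.000423). *H4c3* fell 14.6-fold, from 41, 36 and 39 counts in WT to 1, 7 and 2 in RepB-/- (edgeR, adjusted p = 9.46e-05). *H4c1*, *H4c4* and *H4c14* fell by 2.39, 2.32 and 2.25 on the log2 scale, and for each of them the libraries were separated. *H4f16*, the lone gene of the Hist4 cluster, had 2, 0 and 0 counts in RepB-/- and 31, 17 and 20 in WT. From the summed 2 and 68 counts the ratio of WT over RepB-/- was 47.3, with a 95% exact interval of 12.6 to 398 that covers counting error alone. *H4c9* had the reverse order, with 140, 149 and 169 counts against 69, 95 and 127. In CPM its libraries overlapped, and the log2 fold change of 0.30 ± 0.17 (SE) did not pass (edgeR, adjusted p = 0.188). *H4c8* and *H4c17* did not pass either.

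The H2A members were few after filtering. *H2ac6* had 16, 23 and 28 counts in RepB-/- and 192, 84 and 104 in WT, without overlap, which is a 7.65-fold fall (edgeR, adjusted p = 0.000108). *H2ac7* had 16, 16 and 14 counts against 46, 36 and 53, a 3.81-fold fall (edgeR, adjusted p = 0.000517). *H2aw* (*Hist3h2a*), with between 5 and 17 counts per library, had a log2 fold change of -1.17 and did not pass (edgeR, adjusted p = 0.064). Of the 18 H2A genes listed in MEFs, 6 had no count in any library, among them *H2ac18* and *H2ac19*, which share 88.3% and 100% of their 100-base windows with other genes.

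*H2ac6* and *H2bc4* are neighbours transcribed in opposite directions, with 275 bases between their starts (chr13:23683924 and chr13:23684199, GRCm38 coordinates of the liver table). *H2bc4* had 1882, 1790 and 1858 counts in RepB-/- and 1203, 1507 and 1591 in WT, or 94.2 ± 1.72 against 94.7 ± 1.65 CPM (SD, n = 3 each). Its log2 fold change was -0.01 ± 0.07 (SE, edgeR, adjusted p = 0.935), beside -2.94 ± 0.40 (SE) for its neighbour. The promoter of *H2ac6* covers the interval between them, and it is shown on its own strand from 250 bases before to 50 after the RefSeq start (chr13:23683910-23684209, minus strand, RefSeq, GRCm38.p6). Capitals mark 3 motifs long known from histone promoters, on either strand, so that a reverse complement also appears. They are the box CCAAT, the box TATAAA of many core promoters, and the octamer ATTTGCAT, which Oct factors bind.

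H2ac6 promoter: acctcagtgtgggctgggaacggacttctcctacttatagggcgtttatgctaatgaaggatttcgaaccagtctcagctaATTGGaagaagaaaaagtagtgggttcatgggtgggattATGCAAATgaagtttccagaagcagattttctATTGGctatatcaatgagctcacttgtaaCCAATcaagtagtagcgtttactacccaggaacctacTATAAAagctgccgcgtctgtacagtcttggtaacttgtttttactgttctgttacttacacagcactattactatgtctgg

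The octamer was present in 14 of the 62 RefSeq promoters matched to 61 members, all of them H2A (7 of 18) or H2B (7 of 16) promoters, and in 1.74% of 32851 RefSeq promoters of the same length. TATAAA was in 35 of the 62, against 13.6% of all promoters. CCAAT was in 53, including every H1, H2A, H2B and H3 promoter matched and 3 of 12 H4 promoters, against 37.4%. A match describes these letters alone. The windows of divergent neighbours such as *H2ac8* and *H2bc8* overlap, so that a single site can count for both promoters.

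Among H2B genes, *H2bc21* of the Hist2 cluster had 14, 7 and 25 counts in RepB-/- and 119, 87 and 85 in WT, an 8.35-fold fall without overlap (edgeR, adjusted p = 5.41e-05). It shares no 100-base window with another gene. *H2bc6* had 62, 84 and 66 counts against 121, 128 and 163 and fell 2.51-fold. *H2bc11* and *H2bc8* fell by 1.38 and 0.94 on the log2 scale, and *H2bc9* and *H2bc23* did not pass. *H2bc14*, which was below the filter, had 1, 0 and 0 counts against 4, 12 and 9, a ratio of WT over RepB-/- of 34.7 (95% exact interval 5.69 to 1430, counting error alone).

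Linker histones of the H1 genes bind where DNA enters and leaves the nucleosome. *H1f2* had 4204, 4051 and 3592 counts in RepB-/- and 2971, 3165 and 3248 in WT, or 202 ± 17.4 against 209 ± 25.4 CPM (SD, n = 3 each). These libraries overlapped, and the log2 fold change was -0.05 ± 0.09 (SE, edgeR, adjusted p = 0.701). *H1f1* had 6, 7 and 16 counts against 30, 23 and 24 and fell 3.46-fold (edgeR, adjusted p = 0.00665). *H1f4* fell by 0.81 on the log2 scale (edgeR, adjusted p = 0.0194) with separated libraries. *H1f3* fell by 0.97 (edgeR, adjusted p = 0.0244), but RepB-/- replicate 2, at 8.06 CPM, lay above WT replicate 3, at 7.54 CPM. Both calls were lost without RepB-/- replicate 1 (*H1f4* adjusted p = 0.0797, *H1f3* 0.102) or without WT replicate 1 (0.0695 and 0.0566), and that of *H1f3* also without RepB-/- replicate 3 (0.0962). *H1f5* had 16, 18 and 26 counts against 29, 24 and 22 and did not pass.

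**Figure D2:**
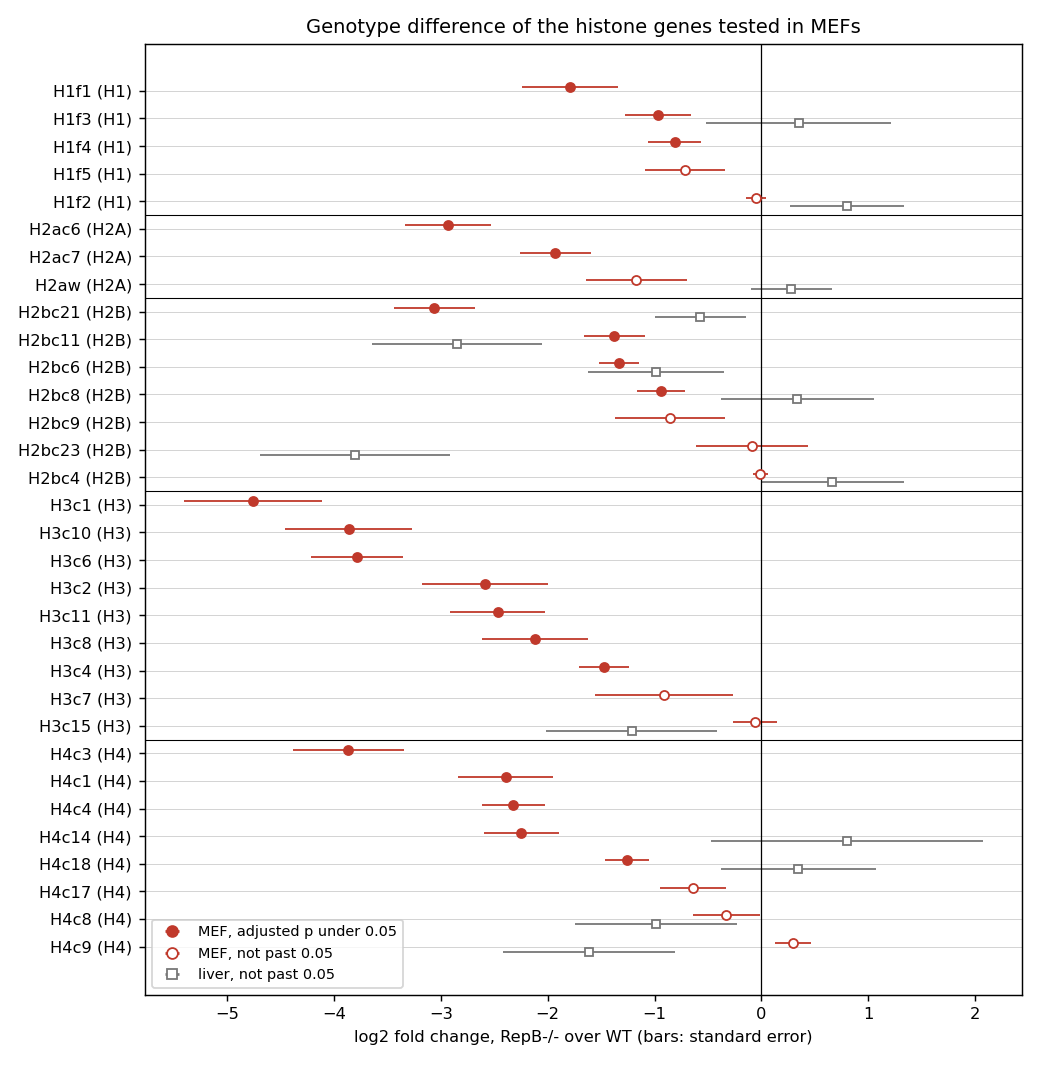
Log2 fold change of RepB-/- over WT with its standard error for the histone genes tested in MEFs (circles, filled past an adjusted p of 0.05) and, where tested, in liver (grey squares), without *H4f16*, whose RepB-/- counts sum to 2. All filled circles lie below 0, and no liver value passed.

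Summed over genes, the 68 members reached 361, 364 and 337 CPM in RepB-/- MEFs and 543, 415 and 416 CPM in WT. Without *H1f2* and *H2bc4*, a sum chosen after the values had been seen, the remaining 66 reached 50.8, 61.7 and 61.0 CPM against 208, 126 and 129 CPM. All RepB-/- libraries were below all WT libraries in both sums, and the log2 ratio of the means went from -0.37 to -1.42. By type, H1 genes overlapped, at 211 ± 17.8 CPM in RepB-/- and 227 ± 30.5 CPM in WT (SD, n = 3 each), and H2B genes gave 105 ± 1.20 against 127 ± 6.90 CPM. H2A genes together gave 2.64 ± 0.49 CPM in RepB-/- and 13.9 ± 6.83 CPM in WT (SD, n = 3 each). H3 genes gave 11.2 ± 1.26 against 39.3 ± 17.4 CPM and H4 genes 23.6 ± 1.87 against 51.0 ± 12.1 CPM. WT replicate 1 had the highest sum of each type. By position, the Hist2 genes gave 6.52 ± 0.53 against 17.4 ± 5.96 CPM and the 3 Hist3 genes 0.461 ± 0.23 against 0.958 ± 0.20 CPM. The sum of each cluster was lower in every RepB-/- library. For Hist3 it rests on few reads, with 0.723 CPM in RepB-/- replicate 2 against 0.804 CPM in WT replicate 2. The 1 Hist3 gene tested was not called. Without WT replicate 1, 21 members were called lower and 0 higher.

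Reads on genes that fibroblasts are not known to use also differed between the genotypes. The 1565 olfactory, vomeronasal and trace-amine receptor genes, a list taken after the histone values had been seen, summed to 7.42, 8.65 and 9.52 CPM of unadjusted library totals in RepB-/- MEFs and to 117, 57.6 and 73.2 in WT. Their sum was highest in WT replicate 1, as was the histone sum. Per kilobase these genes stood at 0.00152 CPM in RepB-/- and 0.0147 in WT, a 9.69-fold difference. This fold was larger than that of the median tested histone gene, whose log2 fold change was -1.38. In absolute CPM per kilobase, the 22 histone genes called lower dropped by between 43.0 and 2020 times the mean receptor difference. These genes were selected for their fall, and the receptor value is a mean over 1565 genes of very low level. The multiple was therefore bound to be large and is a description only. Among single genes, the largest receptor drop, 0.874 CPM per kilobase, exceeded the smallest of a called histone gene, 0.567. The 3 endothelial markers *Pecam1*, *Cdh5* and *Kdr* fell too, summing to between 10.8 and 12.3 CPM in RepB-/- and between 23.2 and 28.0 CPM in WT. Of the 4 keratinocyte markers *Krt14* rose, and they summed to between 6.44 and 12.3 CPM in RepB-/- and between 3.29 and 4.99 CPM in WT. Of the 8 fibroblast markers 5 rose and 1 fell, of 4 leukocyte markers tested 1 rose and 2 fell, and the fetal liver marker *Dlk1* rose. None of 10 erythroid markers was high enough to test, with sums of at most 0.659 CPM in RepB-/- and 1.60 CPM in WT. The part of these differences in the histone result was not tested.

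**Figure D3:**
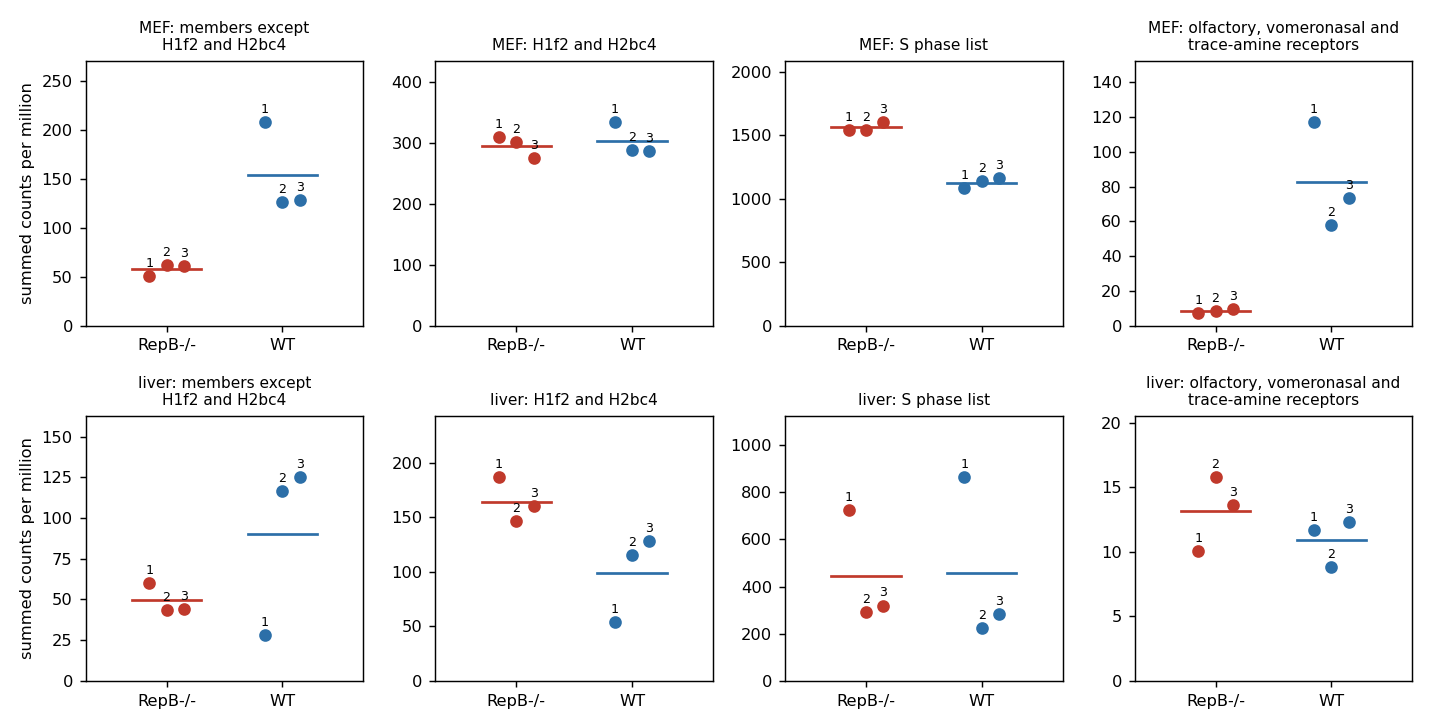
Summed level in each library (numbered points, with the group mean as a line) of members without *H1f2* and *H2bc4*, of those 2 genes, of the S phase list and of olfactory, vomeronasal and trace-amine receptor genes, in MEFs (upper row) and liver (lower row), in CPM of TMM-adjusted totals or, for receptors, of library totals. In MEFs the first and last panels are lower in RepB-/- and the S phase panel is higher, and in liver replicate 1 of both genotypes stands apart in the S phase panel.

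Falls were called whether or not the annotated transcript ran on behind the stem-loop. Of members with a transcript running on for at least 50 bases, 12 of the 18 tested were called lower, with a median log2 fold change of -1.25. Of those ending within 50 bases, 4 of 6 were called lower, with a median of -1.32. Of members without the string in the annotation, 6 of 9 were called lower. That group includes genes such as *H3c10*, whose short annotated transcript may stop before the stem-loop. Over all genes tested the share called lower was 19.7%. The filter favoured genes high in WT. Without it, 12 of 24, 8 of 15 and 8 of 19 were called lower in the same order of groups, beside 16.1% of all genes. Which ends the reads came from is not given by gene counts, so the part of poly(A) selection in these values was not tested. Near-identical copies add another uncertainty, since 26 of the 72 members share over 50% of their 100-base windows with other genes, 5 of the 22 fallen genes among them. 11 of the 22 share under 25% and 4, *H1f1*, *H2bc21*, *H4c4* and *H4c14*, share none.

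**Figure D4:**
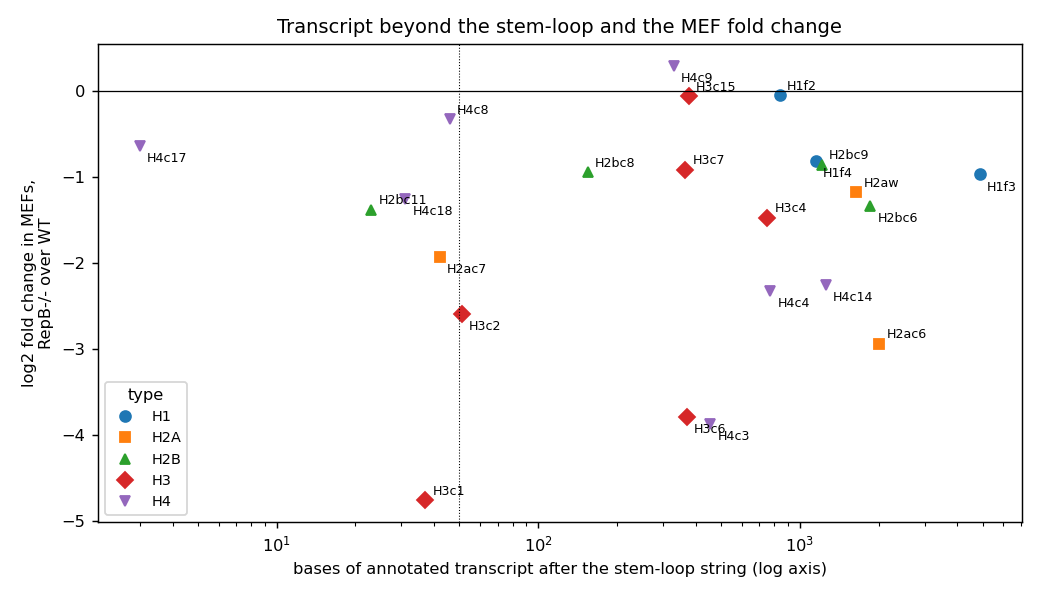
Log2 fold change in MEFs of the tested members with a stem-loop string (without *H4f16*) against the bases of annotated transcript that follow the string, on a log axis, with the dotted line at 50 bases. Called falls occur on both sides of the line, from *H2bc11* at 23 bases to *H1f3* at 4884.

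Genes that work with the replication-dependent histones were counted in the same fits, with lists drawn from general knowledge that share some genes, such as *Slbp* and *Nasp*. The S phase list, which holds genes expressed as DNA is copied, went the other way from the histone genes. It had 33 of 42 tested genes higher in RepB-/- MEFs and 0 lower, beside 19.4% and 19.7% of all genes, with a median log2 fold change of 0.60, and summed to 1545, 1541 and 1606 CPM against 1085, 1138 and 1161 CPM. *Pcna*, the sliding clamp of DNA polymerase, stood at 23.5, 21.1 and 25.6 CPM against 13.6, 15.9 and 18.3 CPM and rose by 0.55 ± 0.12 (log2, SE, edgeR, adjusted p = 0.00333). *Mcm2*, a subunit of the replicative helicase that also binds histones, rose by 0.57 ± 0.07 (log2, SE, edgeR, adjusted p = 6.11e-05).

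Of the 14 genes for processing and turnover of histone mRNA, 4 rose and 2 fell, near the shares of all genes (19.4% and 19.7%). *Slbp* itself stood at 23.6, 24.1 and 27.2 CPM against 23.3, 18.2 and 21.4 CPM and did not pass (log2 fold change 0.25, edgeR, adjusted p = 0.0863). *Npat* rose by 0.39 and *Casp8ap2*, whose protein FLASH acts in histone mRNA cleavage, by 1.01 on the log2 scale. *Cpsf2* and *Cstf2*, subunits of the cleavage and polyadenylation machinery, rose by 0.32 and 0.58. *Zfp473*, a component linked to the U7 particle, fell by 1.13 and *Upf1*, a helicase of RNA decay, by 0.24.

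Histone chaperones, which carry histones to and from DNA, had 9 higher and 2 lower of 17 tested, beside 19.4% and 19.7% of all genes. *Nasp*, *Asf1b*, *Chaf1a* and *Chaf1b*, which deliver new H3 and H4, rose by 0.50, 0.38, 0.52 and 0.49 on the log2 scale. *Atrx*, *Tonsl*, *Mms22l*, *Nap1l1* and *Mcm2* rose as well, by between 0.32 and 0.73. *Daxx*, the H3.3 chaperone that pairs with *Atrx*, fell by 0.50 and *Hjurp*, the chaperone of the centromeric H3, by 0.58.

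The replication-independent variants, which have poly(A) tails and are made throughout the cycle, had 2 higher and 3 lower of 11, also near the shares of all genes. *H3f3a* and *H3f3b*, both coding for H3.3, had log2 fold changes of 0.17 and -0.003 and did not pass, nor did *H2az1* with 0.11. *H2az2* and *Macroh2a2* rose by 0.49 and 0.51, whereas *H2ax*, *Macroh2a1* and *H2aj* fell by 0.40, 0.23 and 0.57. *H2ax* can be processed at a stem-loop like its clustered relatives as well as polyadenylated.

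In liver, no member passed the test, and the members did not share a direction. Among the 70 listed, 28 had a lower mean in RepB-/-, 41 a higher one and 1, *H2ac1*, no count. In 7 members all RepB-/- libraries were below all WT libraries and in 4 above, compared with 3.99% and 2.82% of all genes with a count. Of the 25 members tested, edgeR called 0 lower and 0 higher, beside 0.0311% and 0.00622% of 16080 genes. At an unadjusted p under 0.05, 6 members were lower and 1 higher, against 1.49% and 1.63% of all genes, and DESeq2 called 4 lower and 0 higher, beside 0.245% and 0.181% of its 18811 genes. Leaving out any 1 liver library, RepB-/- replicate 2 with its Y-linked reads included, also gave 0 edgeR calls among members. The spread between liver libraries was wide, with a biological coefficient of variation of 51.2% against 9.06% in MEFs. In counts simulated at this depth and spread, 0% of genes changed by 1 or by 2 on the log2 scale were called, so that differences of this size were not detectable.

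The lowest p-values in liver belonged to H2B genes of the Hist1 cluster. *H2bc13* (*Hist1h2bl*) had 2, 3 and 1 counts in RepB-/- and 15, 71 and 123 in WT, a log2 fold change of -5.10 ± 0.94 (SE, edgeR, adjusted p = 0.621). *H2bc12* (*Hist1h2bk*) had 12, 20 and 6 counts against 57, 228 and 409, a 19.2-fold difference (edgeR, adjusted p = 0.699, DESeq2, adjusted p = 1.37e-05). *H2bc24* (*Hist1h2br*) had 13, 21 and 10 counts against 56, 254 and 335. In each of them all RepB-/- libraries were below all WT libraries, and WT replicate 1 was the lowest WT library.

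*H2bc23* (*Hist1h2bq*) had 8, 34 and 14 counts against 56, 330 and 365, with a log2 fold change of -3.81 ± 0.89 (SE). *H2bc11* (*Hist1h2bj*) had 12, 17 and 4 counts against 39, 30 and 163. *H2bc7* (*Hist1h2bf*) had the reverse order without overlap, with 24, 41 and 19 counts in RepB-/- and 1, 3 and 8 in WT, a 6.63-fold difference that did not pass. These H2B genes were singled out after their values had been seen. With the replicate number as a block none passed either, beside 0.0311% of genes lower and 0.0187% higher, and the lowest adjusted p was 0.0972, for *H2bc23*.

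Summed, *H2bc11*, *H2bc12*, *H2bc13*, *H2bc23* and *H2bc24* reached 0.928, 1.89 and 1.02 CPM in RepB-/- livers and 4.97, 23.6 and 29.5 CPM in WT. The H2B genes apart from *H2bc4* overlapped as a whole, at 15.3 ± 1.37 against 33.5 ± 18.2 CPM (SD, n = 3 each). Between 40.1% and 94.8% of the 100-base windows of these 5 genes are shared with other genes, so that the way reads were assigned to copies could move counts between genes. The promoter of *H2bc12* holds all 3 motifs described above, counting either strand (chr13:22035571-22035870, plus strand, RefSeq, GRCm38.p6, capitals as before). TATAAA occurs in it only as the reverse complement, on the strand of the divergent neighbour *H2ac12*, whose start lies 178 bases away.

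H2bc12 promoter: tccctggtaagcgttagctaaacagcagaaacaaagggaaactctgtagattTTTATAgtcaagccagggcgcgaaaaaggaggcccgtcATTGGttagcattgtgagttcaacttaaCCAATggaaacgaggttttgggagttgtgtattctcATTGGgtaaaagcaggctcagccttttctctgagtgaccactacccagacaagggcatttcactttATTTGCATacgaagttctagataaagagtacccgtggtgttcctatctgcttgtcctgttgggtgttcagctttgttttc

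**Figure D5:**
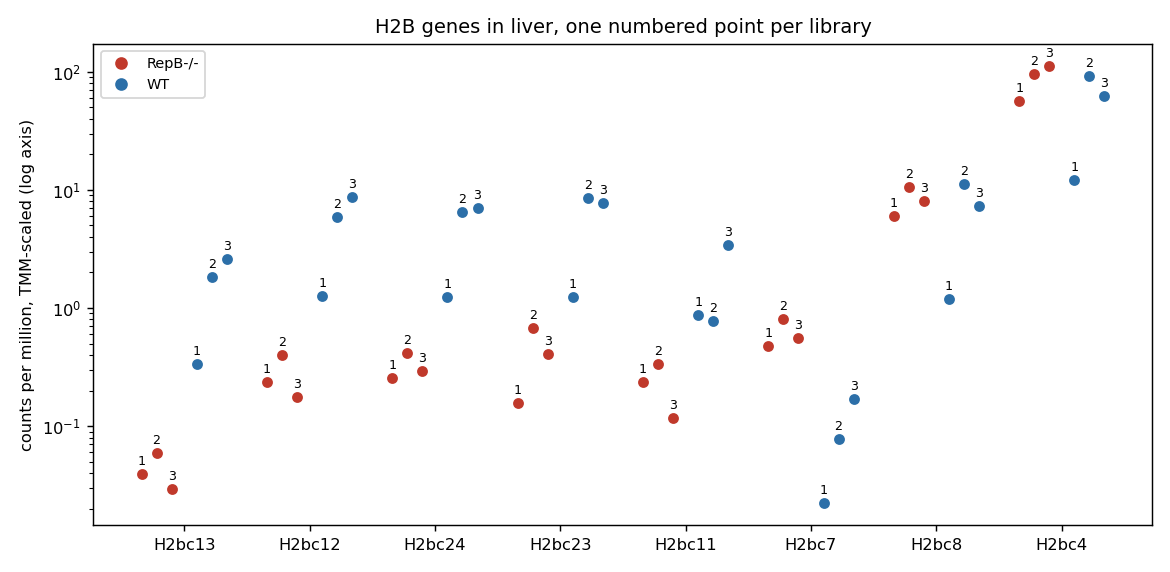
Level of 8 H2B genes in each liver library in TMM-scaled CPM on a log axis, with RepB-/- in red, WT in blue and points numbered by replicate. The 5 genes on the left are lower in every RepB-/- library, *H2bc7* is higher, and the abundant *H2bc8* and *H2bc4* overlap.

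The most abundant members in liver were again *H2bc4* and *H1f2*, with 65.6% of member counts. *H2bc4* had 2845, 4864 and 3853 counts in RepB-/- and 547, 3595 and 2935 in WT, with WT replicate 1 alone far below the rest. *H1f2* had 6612, 2521 and 1631 counts against 1886, 889 and 3114, and the genotypes overlapped for both. By length, *H2bc4* stood at 152 TPM on average, *H1f2* at 64.3 TPM and *H2ac18* at 25.6 TPM, a scale deposited by the authors. The row of *Hist1h2al*, annotated as a pseudogene, stood at 85.4 TPM. *H2bc8* had 307, 533 and 278 counts in RepB-/- and 53, 433 and 343 in WT, and *H1f3* had 36, 7 and 3 against 9, 7 and 17. *Hist1h2al* ranged from 158 to 1562 counts within WT and *H2ac18* from 0 to 1151, so that no order of genotypes could be read.

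H3 and H4 genes were low in liver. The highest of them per length, *H4c9*, had 116, 74 and 14 counts in RepB-/- and 55, 194 and 312 in WT, and *H4c8* 21, 49 and 17 against 13, 75 and 72. *H3c15* had 80, 102 and 95 against 31, 289 and 314, and *H3c14*, all of whose windows are shared with other genes, between 4 and 480. WT replicate 1 lay within or below the RepB-/- range in *H4c9*, *H4c8* and *H3c15*, and the other WT libraries above it. *H3c6* and *H3c1*, among the most changed in MEFs, had at most 12 and 13 counts in any liver library.

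The sum of all members overlapped in liver, with 247, 190 and 204 CPM in RepB-/- and 82.5, 233 and 253 CPM in WT. S phase genes summed to 724 CPM in RepB-/- replicate 1 and 863 CPM in WT replicate 1, against between 223 and 320 CPM in the other libraries. The histone sum was lowest in WT replicate 1, and on unadjusted library totals it was highest in RepB-/- replicate 1, at 266 CPM, followed by WT replicate 3, at 258 CPM. Of the S phase, processing, chaperone and variant lists 0 genes passed in liver. The *Mcm2* level, for example, was 36.9, 6.99 and 7.44 CPM in RepB-/- and 49.5, 4.42 and 7.67 CPM in WT. Erythroid markers summed to 4515, 2249 and 1394 CPM in RepB-/- livers and to 1625, 312 and 258 CPM in WT. Their part in the histone values was not tested.

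Whether the genotype difference itself differed between MEFs and liver was tested as an interaction in all 12 libraries. For some members the MEF and liver counts rest on unlike gene models. *H1f3* is listed with 7425 bases for MEFs but at chr13:23555087-23555830 for liver. *H2ac6* is listed with 2482 bases for MEFs but at chr13:23683449-23683924 for liver. The part of this in the tissue differences was not tested. Of 42 members tested, 0 passed in edgeR at an adjusted p under 0.05 (0.388% of 15208 genes in either direction), and 20 had an unadjusted p under 0.05. Of these, 18 were lower and 2 higher in MEFs than in liver, beside 9.22% and 5.02% of all genes. Among the 42, *H2ac18*, *H2ac19* and *H3c14* had standard errors of 454, 366 and 7408, so that none of them could be called. The lowest adjusted p was that of *H3c1*, 0.0657, with a difference of -6.98 ± 1.39 (log2, SE). With the replicate number within tissue as a block, *H3c1* (adjusted p = 0.0309), *H3c6* (0.0488) and, in the opposite direction, *H2bc23* (0.0424) passed, beside 1.26% of all genes. *H2bc23* had a log2 fold change of -0.09 in MEFs and -3.81 in liver. Without liver WT replicate 1, *H3c1*, *H3c6*, *H4f16*, *H2bc23* and *H3c15* passed. For the other members a fall called in MEFs was not shown to differ from the liver value.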

How the data were processed

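The deposited tables give whole-number counts per gene for 12 libraries (MEF and liver, 3 RepB-/- and 3 WT each), and the authors also deposited TPM for liver, used here only for levels per length. The study's methods name Cutadapt and Hisat2, whereas the submitters' processing notes list Trim Galore 0.4.1, STAR 2.7.0, HTSeq 0.12.4, deepTools 3.5.0 and DESeq2 with the builds GRCm38, mm10 and hg19. Which tool made which table, and the annotation, are not given in the sources used here. The liver counts may not be direct read counts. The columns of the authors' own comparisons and 12 further per-library columns were not used.

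Counts were tested with edgeR 4.0.16 (quasi-likelihood test, TMM, filterByExpr, Benjamini-Hochberg adjustment over all genes tested, threshold 0.05) in R 4.3.3, in each tissue and as a genotype by tissue interaction. Alternatives were DESeq2 1.42.0, other scalings and filters, a replicate block and leaving out libraries. Sums and sequences were handled in Python 3.11.15. The filter kept 13306 genes in MEFs and 16080 in liver. Same-numbered liver libraries deviated together (r = 0.71, 0.36 and 0.37), so liver was also fitted with the replicate number as a block. However, replicates 2 and 3 correlated as much across numbers (0.40 and 0.41), and only replicate 1 stood with its own number. On simulated data 84.85% of genes changed by 1 (log2) and 99% of those changed by 2 were recovered in MEFs, with 8 unchanged genes called among 13318, and 0% in liver. Intervals cover counting error only.

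Members and lists were chosen with earlier results of these data known. Named genes were every member past the threshold, the 2 highest by CPM in each histone type and tissue, *H1f1* to *H1f5*, and the background genes past the threshold. Other members were chosen after their values were seen.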

Additional observations from a re-analysis of the deposited data

Results flagged for a closer look

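For 3 members every RepB-/- library lay below every WT library in MEFs and above every WT library in liver. Of all genes with a count, 24.8% lay below in this way in MEFs and 2.82% above in liver. The share of all genes with both was not counted, so the 3 members are a description only. *H2bc7*, an H2B gene, had 4, 1 and 7 counts in RepB-/- MEFs and 12, 7 and 17 in WT, and 24, 41 and 19 against 1, 3 and 8 in liver. The MEF minus liver difference of its log2 fold change was -4.67 ± 1.06 (SE) and did not pass (edgeR, adjusted p = 0.095, or 0.0537 with the replicate number as a block). For *H3c11*, an H3 gene, the difference was -2.84 (edgeR, adjusted p = 0.12), and for *H4c17*, an H4 gene, -1.52 (edgeR, adjusted p = 0.278). Liver counts of *H3c11* were 9, 10 and 6 against 6, 5 and 8 and those of *H4c17* 14, 11 and 6 against 4, 5 and 7, and on raw library totals both overlapped in liver.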

How the results depend on the processing

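In MEFs 20 of the 22 falls were called under every alternative, the exceptions being *H1f4* and *H1f3*, and 0 members rose in any. Leaving out 1 library gave between 21 and 27 falls, and the median log2 fold change of tested members, -1.38, then ranged from -1.96 (without WT replicate 2) to -1.25. It was -1.81 with DESeq2 and -1.94 without a filter, which add low genes. The replicate numbers did not pair the MEF libraries (r between -0.042 and -0.0035), and the replicate block gave 22 falls. In liver 0 members were called except by DESeq2, which called 4 lower (*H2bc12*, *H2bc13*, *H2bc23* and *H2bc24*). The liver median of -0.57 turned to 0.15 with DESeq2, 0.13 without a filter and 0.0334 without RepB-/- replicate 2, and ranged down to -1.04 without RepB-/- replicate 1. It was -1.21 without both replicate 1 libraries, -0.65 with the replicate block and -0.10 with the block and without RepB-/- replicate 2. The interaction gave 3 members with the replicate block and between 0 and 5 when 1 library was left out, the 5 without liver WT replicate 1. On raw library totals, the log2 ratio of summed members was -0.49 in MEFs and 0.07 in liver, and without *H1f2* and *H2bc4*, an alternative chosen after seeing the data, it was -1.54 and -0.95. The causes were not tested. Of 288 single-member values in MEFs 283 kept their side of the threshold, and of 119 in liver 115. The spread between liver libraries limits what could be called there.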
